A study of Mus musculus with 6 samples.

Results

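Schwann cells are the glia of peripheral nerve, and the nerve branches that run through skeletal muscle carry them into any piece of muscle taken for RNA. The genes described here are 8 that Schwann cells use to make and hold myelin: Egr2 and Sox10 among transcription factors, Pmp22, Mbp, Ncmap, Mag and Prx among structural and adhesion proteins, and the calcium-binding protein S100b. They were chosen by gene symbol, with no measured value in the rule. Each symbol matched a single row, giving 8 of the 49315 genes in the count table, and all 8 passed the filter on low counts that left 15847 genes for testing.

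RNA came from gastrocnemius muscle of male C57BL6J mice given an AAV9 vector in that muscle at 5 months of age and killed 5 months afterwards. The AAV9-HSA-CAAHR group (replicates 31, 34 and 36) received CAAHR, a mouse aryl hydrocarbon receptor (AHR) without its ligand-binding domain and so active without ligand, and the AAV9-HSA-GFP group (replicates 42, 43 and 46) received green fluorescent protein. The promoter of both vectors, from human skeletal actin (HSA), works in muscle fibres, so neither vector was designed to act within Schwann cells, and the control muscles had been injected with virus as well. Uninjected muscle was not analysed here. By quantitative PCR, the authors found selected immune genes not lower in CAAHR muscle than in muscle without virus. They read this as a local immune response to the GFP vector, so lower immune transcripts in CAAHR are relative to that control.

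Library totals ran from 43432994 to 58825752 counts, and levels are given as CPM (counts brought to a common library size, here with TMM scaling, which uses the trimmed mean of log ratios between libraries), in the order 31, 34, 36 for CAAHR and 42, 43, 46 for GFP. The group labels were checked on 6 AHR pathway genes, Ahr included, and 6 of 6 were called higher in CAAHR by edgeR's quasi-likelihood test at a Benjamini-Hochberg adjusted p under 0.05, the threshold used throughout. CAAHR replicate 34 stood apart from the other CAAHR libraries in several gene groups, and results that turn on it are also given without it.

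Myelin is a spiral of Schwann cell membrane around an axon. In compact myelin, adjacent membranes are pressed together by proteins such as Pmp22 and Mbp, while the cytoplasm-filled collars and channels that remain are noncompact myelin, the place of Mag and the namesake of Ncmap. Sox10 keeps cells in the Schwann lineage and, with Egr2, switches on the genes of the myelin sheath. In adult muscle, intramuscular nerve and the glia at nerve endings, a small share of the tissue, make these RNAs. Egr2, Pmp22 and S100b can also come from other cell types.

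The sequences first in view are stretches around transcription starts, shown because the factor delivered to the fibres binds a short DNA core and because Egr2 was the one member called by edgeR. RefSeq windows of 300 bases on GRCm38.p6, from 250 bases before to 50 bases after a start, were found for 6 of the 8 members, 16 windows in all. The AHR core, GCGTG or CACGC on the other strand, was present in 3 of the 16 windows (18.8%), against 32.4% of all 32851 windows in the table. One window each of Pmp22 (chr11:63131207-63131506, plus strand), Prx (chr7:27499074-27499373, plus strand) and Ncmap (chr4:135385623-135385922, minus strand) held it, and none of the 5 Egr2 windows did. In the lines for these genes the capitals mark that core, and in the Egr2 line (chr10:67537619-67537918, plus strand) they mark a CArG box, the binding pattern of serum response factor.

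Pmp22: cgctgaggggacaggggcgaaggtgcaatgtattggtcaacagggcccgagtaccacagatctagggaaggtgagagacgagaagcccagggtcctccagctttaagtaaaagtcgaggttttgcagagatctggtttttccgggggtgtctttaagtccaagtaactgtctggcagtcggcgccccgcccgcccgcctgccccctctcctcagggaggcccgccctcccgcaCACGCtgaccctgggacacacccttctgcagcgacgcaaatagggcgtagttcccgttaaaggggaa
Prx: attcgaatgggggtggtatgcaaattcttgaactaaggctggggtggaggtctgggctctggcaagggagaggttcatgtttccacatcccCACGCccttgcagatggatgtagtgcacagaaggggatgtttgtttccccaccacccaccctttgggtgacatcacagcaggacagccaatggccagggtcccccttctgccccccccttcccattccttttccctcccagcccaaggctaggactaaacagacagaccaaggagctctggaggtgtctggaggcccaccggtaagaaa
Ncmap: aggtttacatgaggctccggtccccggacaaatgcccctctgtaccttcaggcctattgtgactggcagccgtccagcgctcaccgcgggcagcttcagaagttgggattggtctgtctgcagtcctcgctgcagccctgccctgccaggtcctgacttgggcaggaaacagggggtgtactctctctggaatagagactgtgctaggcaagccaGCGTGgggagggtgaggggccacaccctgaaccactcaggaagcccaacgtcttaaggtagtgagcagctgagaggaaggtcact
Egr2: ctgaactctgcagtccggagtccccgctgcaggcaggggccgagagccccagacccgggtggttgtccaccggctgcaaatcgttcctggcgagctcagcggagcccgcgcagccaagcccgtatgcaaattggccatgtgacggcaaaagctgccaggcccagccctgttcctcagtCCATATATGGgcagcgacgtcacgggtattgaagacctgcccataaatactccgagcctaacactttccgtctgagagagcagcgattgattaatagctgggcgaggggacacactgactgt

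The longer AHR pattern TNGCGTG was in 0 of the 16 windows, against 5.07% of all windows, and the EGR pattern GCGNGGGCG was also in 0 of 16, against 5.55%. These patterns overlap one another at GCGTG where the open base of the EGR pattern is T. The SOX pattern ACAANG was in 5 of 16 windows (31.2%), spread over Mag, S100b and Egr2, against 41.2% of all windows. A CArG box was in 4 of the 5 Egr2 windows, in no window of another member, and in 1.63% of all windows. Some of these Egr2 windows overlap and hold the same box, so they are not separate sites. The CArG search was added after the Egr2 sequence had been seen. All patterns were sought on both strands, and a match describes letters in a window, not binding.

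Egr2 was the one member that passed the edgeR test, and it was lower in CAAHR muscle (DESeq2 and limma-voom each called Egr2 and Mbp). This zinc-finger transcription factor turns on myelin genes in Schwann cells and is also an immediate-early gene, transcribed quickly after stimulation in many cell types. The gene lies on chromosome 10 at 67535475-67542188 (GRCm38, plus strand). Its level was 1.25, 1.91 and 1.33 CPM in CAAHR and 3.98, 3.61 and 4.44 CPM in GFP, from 63 to 235 counts a library. Every CAAHR library lay below every GFP library, and CAAHR replicate 34 was the highest of its group. Means were 1.49 ± 0.361 CPM (SD, n = 3) and 4.01 ± 0.417 CPM (SD, n = 3), a log2 fold change of -1.42 (SE 0.21, 95% interval -1.89 to -0.95), or 2.68-fold higher in GFP, with an adjusted p of 0.0041 by edgeR's quasi-likelihood test. Of all tested genes 7.6% were called in either direction and 4.57% were called lower in CAAHR, and 1 of the 8 members was, while 0 members and 3.04% of tested genes were called higher.

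Sox10, the lineage factor that works with Egr2, differed much less (chromosome 15, 79154908-79165240, minus strand). It stood at 1.42, 0.893 and 1.56 CPM in CAAHR and at 1.72, 1.59 and 2.0 CPM in GFP, on 51 to 106 counts. The groups did not overlap, although the highest CAAHR library and the lowest GFP library were close, and they overlapped when libraries were scaled by size alone. The log2 fold change was -0.46 (SE 0.26, interval -1.03 to 0.12, edgeR adjusted p 0.319), so a decrease of the size seen for Egr2 lay outside the interval while no difference lay inside it. With 1 library left out, the log2 fold change of Sox10 ranged from -0.62 to -0.26.

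**Figure D1:**
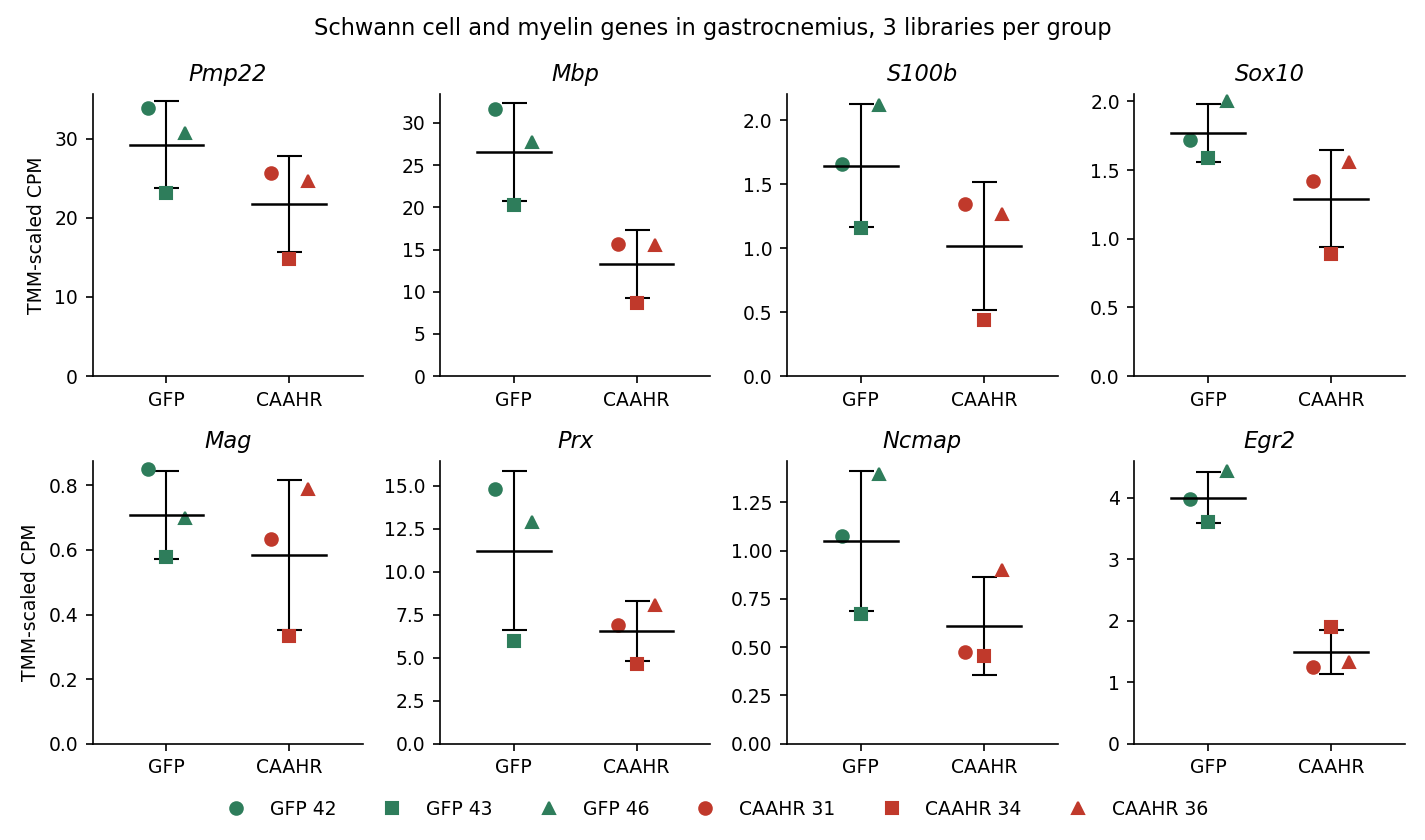
TMM-scaled CPM (linear axes starting at 0) of the 8 members in each of the 3 GFP and 3 CAAHR libraries, with the group mean as a horizontal line and the SD as bars. Egr2, Mbp and Sox10 are the members whose groups do not overlap, and CAAHR replicate 34 is the lowest of the 6 libraries for every member except Egr2.

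Mbp, whose protein bridges the cytoplasmic faces of the myelin membrane, had the next largest difference (chromosome 18, 82475146-82585637, plus strand). It measured 15.7, 8.66 and 15.5 CPM in CAAHR and 31.6, 20.2 and 27.7 CPM in GFP, on 495 to 1526 counts. The groups did not overlap, and within each group 1 library, CAAHR 34 or GFP 43, lay well under the other two. Means of 13.3 ± 3.99 and 26.5 ± 5.78 CPM (SD, n = 3 each) gave a log2 fold change of -1.0 (SE 0.26, interval -1.60 to -0.40). The unadjusted p was 0.00555 and the edgeR adjusted p 0.0603, just outside the threshold. Without CAAHR replicate 34 the adjusted p was 0.0226. In all, the Mbp difference passed in 6 of the 14 alternative settings, with adjusted p from 2.22e-06 to 0.175.

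Groups that did not overlap, with CAAHR lower, were found for 3 of the 8 members (Egr2, Mbp and Sox10) and for 14.9% of all tested genes (29.9% in either direction). Without GFP replicate 43 this held for 7 members, all but Mag, and for 19.2% of tested genes. That library was the lowest GFP library for 8 of 8 members but for 29.4% of tested genes. Leaving it out therefore favoured the members, and the 19.2% is not a matched comparison. The count of members ranged from 3 to 7 when a library was left out and from 2 to 3 in the other settings. An unadjusted p under 0.05 with CAAHR lower was reached by 2 members and by 12.6% of tested genes.

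Pmp22, a membrane-spanning protein of compact myelin whose gene dosage underlies inherited demyelinating neuropathy, was the most abundant member (chromosome 11, 63128982-63159547, plus strand). Its values were 25.7, 14.8 and 24.7 CPM in CAAHR and 33.8, 23.1 and 30.6 CPM in GFP, and the groups overlapped. The log2 fold change was -0.43 (SE 0.23, interval -0.95 to 0.10, edgeR adjusted p 0.303), and it ranged from -0.57 to -0.22 when 1 library was left out. Pmp22 is not restricted to Schwann cells, being expressed at lower levels in fibroblasts and other cells.

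Prx encodes periaxin, which ties the Schwann cell membrane to the dystroglycan complex and the surrounding basal lamina (chromosome 7, 27499324-27520214, plus strand). It was at 6.90, 4.62 and 8.05 CPM in CAAHR and at 14.8, 5.98 and 12.9 CPM in GFP. GFP replicate 43 sat within the CAAHR range, while the other two GFP libraries were above all CAAHR libraries. The log2 fold change was -0.79 (SE 0.36, interval -1.65 to 0.08, edgeR adjusted p 0.246), and without GFP replicate 43 it was -1.08 with an adjusted p of 0.0296. An antisense gene, Gm15541, shares 300 exon bases with Prx and had at most 14 counts in a library, and the counting used strand only if the library preparation kept it, which was not stated in the sources used here. Mbp, S100b and Ncmap also lie opposite another gene (Rpl21-ps8, Dip2a and Gm12991) but share 0 exon bases with it.

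Ncmap, the noncompact myelin-associated protein gene, was scarce, at 24 to 74 counts (chromosome 4, 135369576-135398227, minus strand). CAAHR libraries held 0.475, 0.455 and 0.902 CPM and GFP libraries 1.08, 0.673 and 1.40 CPM, with overlap between GFP replicate 43 and CAAHR replicate 36. Its log2 fold change was -0.78 (SE 0.38, interval -1.63 to 0.07, edgeR adjusted p 0.246).

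Mag, the adhesion molecule on the Schwann cell membrane that faces the axon, differed least (chromosome 7, 30899176-30914873, minus strand). On only 19 to 48 counts it was at 0.633, 0.333 and 0.787 CPM in CAAHR and 0.850, 0.577 and 0.699 CPM in GFP, and the groups overlapped. The log2 fold change of -0.28 (SE 0.37, interval -1.10 to 0.54, edgeR adjusted p 0.709) became -0.0048 without CAAHR replicate 34. The interval at this depth takes in both no difference and a decrease past that of Mbp.

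S100b is widely used to mark Schwann cells and is also made by adipocytes (chromosome 10, 76253853-76261159, plus strand). It stood at 1.34, 0.438 and 1.26 CPM in CAAHR and at 1.66, 1.15 and 2.11 CPM in GFP, on 25 to 112 counts, with overlapping groups. The log2 fold change was -0.70 (SE 0.41, interval -1.62 to 0.22, edgeR adjusted p 0.341), and it ranged from -0.95 to -0.35 when 1 library was left out. Of 8 adipocyte genes, 3 were called lower (Cfd, Plin1 and Retn), and the median log2 fold change was -2.04. The summed level, 88.5 to 142 CPM in CAAHR and 111 to 234 CPM in GFP, was mostly Fabp4, a fatty acid carrier with a log2 fold change of -0.03 (edgeR adjusted p 0.957), and that of Pparg, the adipocyte transcription factor, was 0.02 (edgeR adjusted p 0.978). Retn was lost without CAAHR replicate 31 or GFP replicate 46, and Cfd and Plin1 each in 6 of 14 alternatives, among them the fits without CAAHR replicate 31 or 36 or GFP replicate 42 or 46 (adjusted p up to 0.126 and 0.136). Plin1, which coats lipid droplets, was at 1.74, 0.560 and 2.20 CPM in CAAHR and 14.4, 5.36 and 10.9 CPM in GFP. The part of fat cells in the S100b values was not tested.

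Taking the members one by one, each had a log2 fold change below 0, as did 48.8% of all tested genes, and their median was -0.74 (range of medians -0.95 to -0.47 when 1 library was left out). Because these are levels in whole muscle, fewer Schwann cells and less RNA per Schwann cell cannot be told apart in any of them. Nor can either be told apart from a change in other cells that make the same RNA, as for Egr2, Pmp22 and S100b.

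Within each group the members shared their lowest library, apart from Egr2 in CAAHR, but not their highest. CAAHR replicate 34 was the lowest of the 6 libraries for 7 of the 8 members, the exception being Egr2, and this was so for 18.9% of all tested genes. GFP replicate 43 was the lowest GFP library for 8 of 8 members, against 29.4% of tested genes. Centred on each gene's own mean of log2 CPM, the members' median was -0.14, -0.78 and 0.03 in CAAHR and 0.46, -0.07 and 0.63 in GFP.

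**Figure D2:**
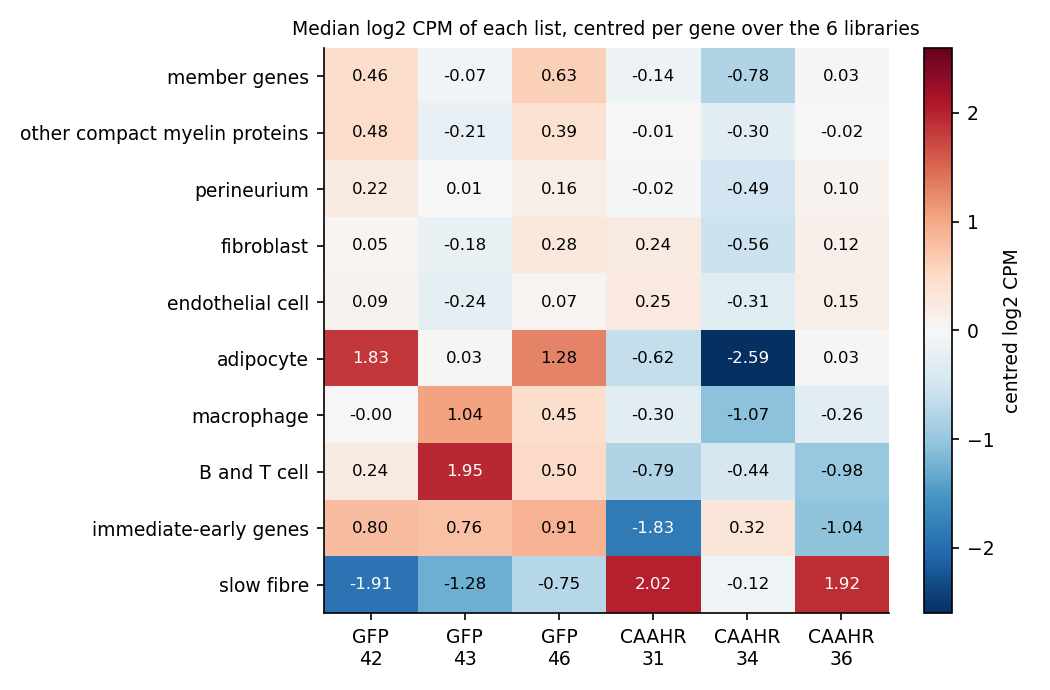
Median log2 CPM of each gene list, centred per gene over the 6 libraries (colour and printed value), with libraries in columns. The member genes are lowest in CAAHR 34 (-0.78) and lowest among GFP libraries in GFP 43 (-0.07), while the B and T cell list is highest in GFP 43 (1.95).

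The balance among Schwann cell genes was examined by dividing the CPM of each member by that of Sox10 in the same library. Mbp over Sox10 was 11, 9.71 and 9.94 in CAAHR and 18.4, 12.8 and 13.8 in GFP. Mbp was thus lower against the lineage factor in every CAAHR library than in any GFP library. Egr2 over Sox10 was 0.875, 2.14 and 0.853 in CAAHR and 2.31, 2.27 and 2.22 in GFP, which left the groups apart but CAAHR replicate 34 close to GFP. Against a wider sum of Schwann cell genes the groups stayed apart for Mbp, whereas for Egr2 CAAHR replicate 34 fell inside the GFP range, so this ratio depended on the denominator. The same ratio for Pmp22 was 16.8 ± 1.13 in CAAHR and 16.5 ± 2.75 in GFP, and for Prx 5.06 ± 0.188 and 6.27 ± 2.42 (SD, n = 3 each), and the ratios of Pmp22, Prx, S100b, Mag and Ncmap overlapped between groups. An exact permutation test of 3 against 3 cannot give a p under 0.1, so these ratios are described without a test.

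A list of 8 immediate-early genes was read beside Egr2. By edgeR, 1 was called, Egr3, which was lower (log2 fold change -1.32, adjusted p 0.0327), and that call was lost in 5 of the 6 fits that left out a library, all but CAAHR replicate 34 (adjusted p up to 0.107). In all, 3 of the 8 had an unadjusted p under 0.05, the median log2 fold change was -1.38, and 5 had CAAHR libraries all below GFP libraries. DESeq2 called 3 of the 8 lower and limma-voom 5. Fos, Nr4a1 and Atf3 overlapped between groups, and Atf3 had a log2 fold change of 1.24 (edgeR adjusted p 0.477). Egr1 was at 12.7, 102 and 40.1 CPM in CAAHR and at 213, 186 and 189 CPM in GFP, and Fos at 14.1, 285 and 27.3 CPM and at 281, 174 and 185 CPM. CAAHR replicate 34 had the highest value of its group for each of the 8 genes. The summed level was 248 to 960 CPM in CAAHR and 890 to 1005 CPM in GFP, and without CAAHR replicate 34 the list's median became -2.20. The part of these genes in the Egr2 difference was not tested.

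**Figure D3:**
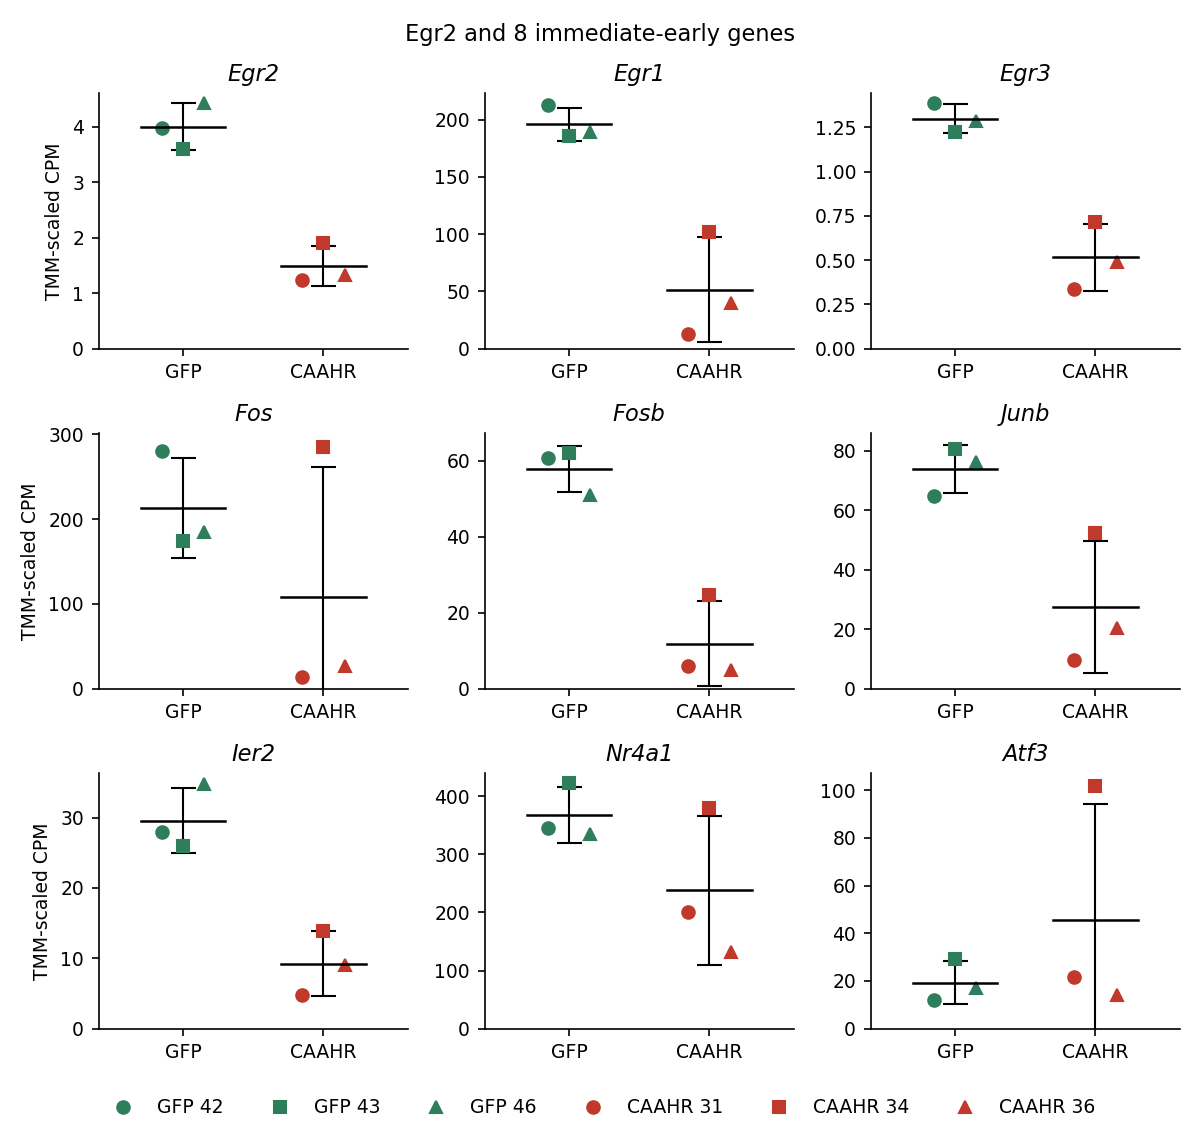
TMM-scaled CPM of Egr2 and 8 immediate-early genes in the 3 GFP and 3 CAAHR libraries, with group means as lines and SD as bars (linear axes from 0, at which the lower bars of Fos and Atf3 are cut). CAAHR replicate 34 is the highest CAAHR library in every panel, and for Egr2 it stays below all GFP libraries.

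Per kilobase of exon, the members spanned a wide range of levels. In GFP muscle Pmp22 led with 12.4 ± 2.33 CPM per kilobase (SD, n = 3), followed by Mbp at 3.13 ± 0.683, Prx at 2.01 ± 0.832, Egr2 at 1.18 ± 0.123, S100b at 1.11 ± 0.324, Sox10 at 0.580 ± 0.0695, Ncmap at 0.471 ± 0.163 and Mag at 0.174 ± 0.0336. Within every GFP library this order held except for Egr2 and S100b, which changed places in GFP replicate 46. The GFP ranges of Mbp and Prx, of Prx and Egr2, of Egr2 and S100b, and of Sox10 and Ncmap overlapped, and the remaining neighbours' ranges did not. In CAAHR muscle the mean level of Egr2 was 0.440 CPM per kilobase and came after S100b (0.684), with overlapping values. Lengths are merged exons over all annotated transcripts, and for Mbp, with 16 of them, this understates transcripts that use few of those exons.

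The tissue label held for both nerve and muscle: Erbb3, Cdh19 and Sox10 were detected in every library, and Myh4, the fast myosin of gastrocnemius, was at least 57095 CPM. Mbp and Mag are also made by oligodendrocytes of the central nervous system and Sox10 by melanocytes, so both were checked. Of 5 oligodendrocyte genes none passed the filter on low counts, Opalin was at 0 in every library, and the summed level was 0.148 to 0.356 CPM in CAAHR and 0.124 to 0.415 CPM in GFP. Of 5 melanocyte genes, 1 passed the filter, Pmel, at 14 to 35 counts a library (log2 fold change -0.04, edgeR adjusted p 0.972). Tyr was at 0 in every library, and the sums were 0.476 to 0.683 CPM in CAAHR and 0.394 to 0.661 CPM in GFP. Chat, a gene of motor neurons, was at 0 in all libraries, but 5 of 8 neuron and axon genes passed the filter. Among those 5, Uchl1 had 228 to 501 counts a library and Snap25 27 to 154.

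Outside the 8 members, 80 further Schwann cell genes were listed by role and 73 passed the filter. Of these, 4 were called lower and 1 higher in CAAHR, which is 6.85% against 7.6% of all tested genes. Of the 73, 49 had a log2 fold change below 0 and 24 above, and the median was -0.15, against 0.01 for all tested genes. The median kept its sign in the 14 alternatives, from -0.35 to -0.07.

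The list closest to the members in role, other compact myelin proteins, had 9 of 10 genes tested, 8 of them below 0, and a median of -0.45. None was called by edgeR, although 4 had an unadjusted p under 0.05 with CAAHR lower, and 2 were called lower by DESeq2 and 0 by limma-voom. Cnp, a cytoplasmic enzyme of myelinating glia, had a log2 fold change of -0.45 (edgeR adjusted p 0.0858) and was the only tested gene of the list whose groups did not overlap. Cd59a and Cd9, which were more abundant, had log2 fold changes of -0.05 and -0.18 (edgeR adjusted p 0.899 and 0.658).

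Among 11 tested genes of Schwann cell transcription and growth signalling, 1 was called: Zeb2, a transcriptional repressor needed for Schwann cell maturation, was lower (log2 fold change -0.59, edgeR adjusted p 0.0358). That call was lost in 5 of 14 alternatives, with library size scaling and without CAAHR replicate 31 or 36 or GFP replicate 42 or 46, where the adjusted p reached 0.127. The list's median was -0.04, and its sign changed with library size scaling. Pou3f1, a factor of promyelinating cells, was at 0.910, 0.735 and 0.607 CPM in CAAHR and 1.18, 1.15 and 1.32 CPM in GFP without passing the test (edgeR adjusted p 0.132), and it was singled out after its values were seen.

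The partners of periaxin and the basal lamina gave 10 tested genes with a median of -0.08 whose sign changed in 2 alternatives. None was called by edgeR, 2 had an unadjusted p under 0.05 with CAAHR higher, and DESeq2 and limma-voom each called 1 higher. Dag1, encoding dystroglycan, which muscle fibres also make, was at 319 ± 5.57 CPM in CAAHR and 257 ± 21.5 CPM in GFP (SD, n = 3 each, log2 fold change 0.32, edgeR adjusted p 0.096). Drp2, the dystrophin relative that binds periaxin, was named here after its values were seen and had a log2 fold change of -0.46 (edgeR adjusted p 0.338).

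Axon-glia contact and nodal genes had 1 call in 11 tested, and it was upward. Epb41l3, a membrane skeleton protein of the paranodal region, was at 2.69, 2.48 and 2.72 CPM in CAAHR and 1.43, 1.80 and 1.21 CPM in GFP (log2 fold change 0.83, edgeR adjusted p 0.0396). Leaving out CAAHR replicate 31 or 36 or GFP replicate 42 or 46 ended this call (adjusted p up to 0.126). The list's median was -0.16.

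Non-myelinating and repair Schwann cell genes had 1 call in 10 tested and a median of -0.44. Ngfr, the low-affinity neurotrophin receptor, was at 0.218, 0.175 and 0.180 CPM in CAAHR and 0.725, 0.673 and 0.415 CPM in GFP (log2 fold change -1.65, edgeR adjusted p 0.0292). The call was lost when any library but GFP replicate 46 was left out (adjusted p up to 0.0991) and kept in the other alternatives. Of 10 tested genes of demyelinating neuropathy, Gdap1, a mitochondrial outer membrane protein that muscle and nerve both use, was called lower (log2 fold change -1.36, edgeR adjusted p 0.0136, lost without GFP replicate 42 or 46 at up to 0.0512), with a list median of -0.07 whose sign changed in 1 alternative.

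**Figure D4:**
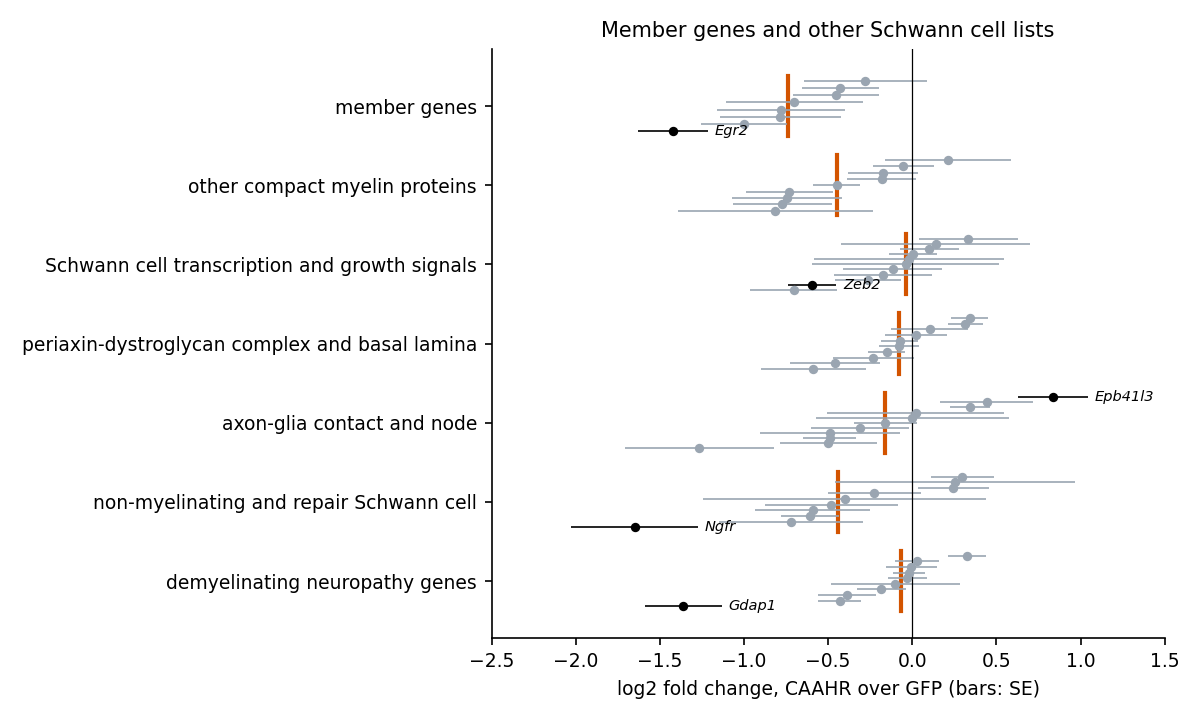
Log2 fold change of CAAHR over GFP (points) with its SE (bars) for each tested member and each tested gene of 6 other Schwann cell lists, with orange lines at list medians and named black points for genes past the adjusted p threshold. The member median is at -0.74 and the other lists' medians lie between -0.45 and -0.04.

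Other cell types of the muscle were read from their own marker lists. Fibroblast genes had a median log2 fold change of -0.18 and endothelial genes of 0.10, and the fibroblast median changed sign in 1 alternative. No gene of either list was called by edgeR or limma-voom, 1 in each had an unadjusted p under 0.05, and DESeq2 called 1 fibroblast gene. Their summed levels were 294 to 532 against 418 to 520 CPM (fibroblast) and 163 to 238 against 170 to 221 CPM (endothelial), CAAHR first. The perineurium, the sheath around nerve fascicles, had 3 tested genes with a median of -0.03, whose sign changed in 4 alternatives, and none called by edgeR (0 at an unadjusted p under 0.05), DESeq2 or limma-voom. The same held for 5 tested neuron and axon genes, with a median of 0.47 whose sign changed in 1 alternative. Macrophage genes, summing to 11.7 to 20.8 CPM in CAAHR and 22.9 to 51.8 CPM in GFP, had a median of -1.15, with 0 of 6 called by edgeR or limma-voom, 5 at an unadjusted p under 0.05 and 4 called by DESeq2. Among 6 tested B and T cell genes, summing to 1.54 to 2.31 and 3.34 to 10.9 CPM, 2 were called lower (Cd79a and Cd79b), calls lost with limma-voom and without CAAHR replicate 31 or 36 or GFP replicate 43 or 46, and for Cd79a also without CAAHR replicate 34 (adjusted p up to 0.137). The part of immune cells in the members' values was not tested. B and T cell genes were highest in GFP replicate 43, the GFP library lowest for every member.

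Genes that muscle fibres switch on when they lose their nerve had 1 edgeR call each way among 8 tested. An unadjusted p under 0.05 was reached by 2 with CAAHR higher and 1 with CAAHR lower. DESeq2 called 2 higher and 1 lower, and limma-voom 1 each way. The acetylcholine receptor subunit Chrnd was called higher (log2 fold change 1.05, edgeR adjusted p 0.026, up to 0.108 and not called without CAAHR replicate 31 or 36 or GFP replicate 43 or 46) and Gadd45a, a stress-response gene, lower (log2 fold change -1.12, edgeR adjusted p 0.00654), and the list median was 0.10, changing sign in 2 alternatives. Slow fibre genes had a median of 2.62, with 0 of 8 called by edgeR, 7 at an unadjusted p under 0.05 with CAAHR higher, and 7 called higher by DESeq2 and 8 by limma-voom, and with Myh7 at 877, 156 and 809 CPM in CAAHR and 37.6, 52.6 and 79.5 CPM in GFP. Of 8 fast fibre genes 2 were called lower (Tnnt3 and Tnni2), with a median of -0.39, and both calls were lost when any library but CAAHR replicate 34 was left out (adjusted p up to 0.146). CAAHR replicate 34 was again apart from its group for Myh7. The part of nerve supply or fibre type in the members' values was not tested.

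Across the 12236 tested genes with a mean of at least 1 CPM, likeness was measured as the mean absolute difference from the members' mean centred log2 CPM over the 6 libraries. Among the 10 nearest genes were Ptprq, Apcdd1, Gatm, Igfbp4, Bace2, Ntf3, Ccdc80, Adamts2 and Gsn, with differences from 0.0613 to 0.120. Listed Schwann cell genes further out included Drp2 at rank 17, Scn7a 21, Mal 28, Cldn19 33 and Itgb4 34. Among listed genes of other cell types, the nearest were endothelial Vwf at rank 25 and fibroblast Dpt at rank 38.

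**Figure D5:**
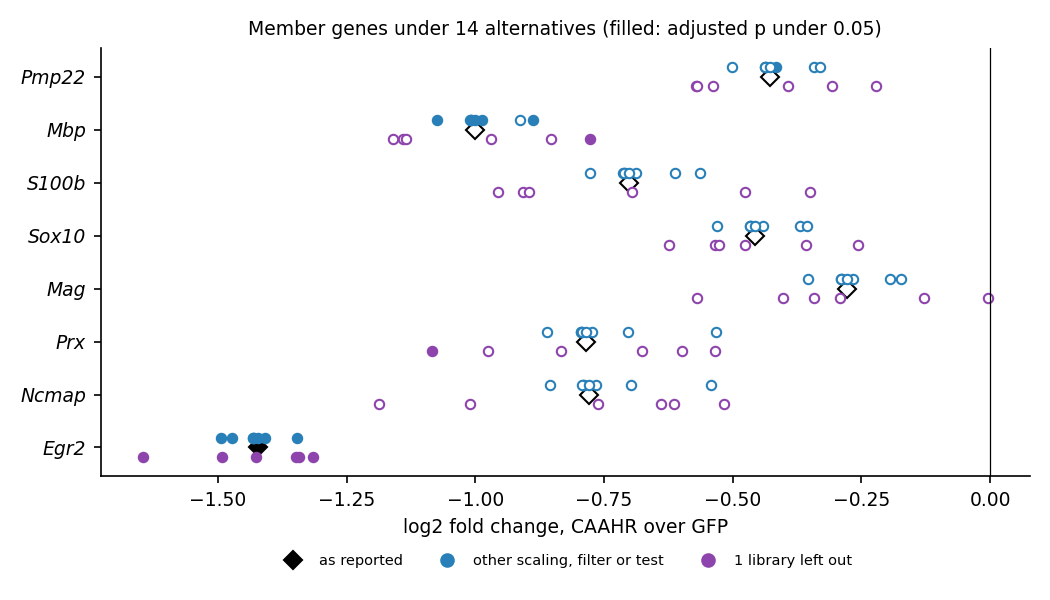
Log2 fold change of CAAHR over GFP for each member as reported (diamonds) and under 14 alternatives (circles), filled where the adjusted p is under 0.05. Egr2 is filled throughout, from -1.65 to -1.32 with a library left out, Mbp is filled in 6 alternatives, and no member crosses 0.

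Egr2 passed the threshold in 14 of 14 alternatives, with adjusted p from 1.83e-08 to 0.0272. Leaving out CAAHR replicate 34 or GFP replicate 43 raised the number of members called from 1 to 2, by adding Mbp in the one case and Prx in the other.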

How the data were processed

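RNA-seq was analysed from 6 libraries, 3 per group. The files hold raw read counts by gene as deposited. Per the authors' methods and the submitters' processing notes, reads were trimmed with Trimmomatic 0.36, aligned to GRCm38 with STAR 2.5.2b and summed over exons with featureCounts. The deposited counts were neither normalised nor pooled. Strand was used in counting only if the library preparation kept it, which is not stated in the sources used here. Rows lacking a symbol (174, 0.0154% of counts) were kept, and 99.5% of identifiers were in GENCODE release 21 for mouse, which gave positions.

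The whole table was filtered with filterByExpr, scaled by TMM and tested with edgeR 4.0.16 (quasi-likelihood, robust, two-sided) in R 4.3.3, with Benjamini-Hochberg adjustment over 15847 genes. The script was tested on simulated data. DESeq2 1.42.0 and limma 3.58.1 served as alternatives. The log2 fold changes carry 95% intervals from the same fit. Libraries were grouped by title. The labels gave no batch and did not say that each library came from a separate mouse, so p-values measure the spread between these samples, which may be technical. Within groups, libraries differed by more than sampling noise.

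The members and 21 further gene lists were chosen with earlier results of these data known. In each list, called genes were named, up to 4, otherwise the most abundant, with the 10 genes most like the members and genes overlapping them. Egr1, Fos, Myh7, Pou3f1 and Drp2, and the CArG box, were picked after their values or sequences were seen. Some items of these lists are not reported here.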

Additional observations from a re-analysis of the deposited data

How the results depend on the processing

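Of 112 checks of single members (8 members under 14 alternatives), 104 kept direction and side of the threshold, 8 gained a call and none changed sign. The count of members called, 1 as reported, was 3 without the filter on low counts (Egr2, Mbp and Pmp22), 2 with upper quartile scaling, the DESeq2 Wald test, limma-voom or edgeR without robust estimation, and 1 to 2 when 1 library was left out, the 2 arising without CAAHR replicate 34 or GFP replicate 43. For all tested genes, 1205 calls became 2470 without the filter, 1919 with DESeq2, and 530 (without CAAHR replicate 36) to 1727 (without CAAHR replicate 34). The 5 calls among other Schwann cell genes became 17 without the filter, 8 with upper quartile scaling, 12 with DESeq2, 8 with limma-voom, and 1 (without CAAHR 31, CAAHR 36, GFP 42 or GFP 46) to 8 (without CAAHR 34). The cause was not tested. The split of all calls, 724 lower and 481 higher, became 990 and 358 with upper quartile scaling and 600 and 876 with library size alone, which shifted the median of all genes by -0.07 and 0.08 on the log2 scale. For other Schwann cell genes the split of 4 lower and 1 higher became 7 and 1, and 3 and 3. Counts under about 100 a library (Mag, Ncmap, S100b, Sox10, and Egr2 in CAAHR replicates 31 and 36) limit what these libraries can resolve. No paired analysis was possible because GFP and CAAHR libraries carry different replicate numbers.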
